A study of Caenorhabditis elegans with 2 samples.

Results

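The genes described here encode the neuropeptide and insulin-like peptide precursors of Caenorhabditis elegans. They were taken by name from the protein-coding genes of Ensembl release 115 on WBcel235 (ce11), as every gene called flp, nlp or ins followed by a number, together with daf-28, a member of the insulin family. This gave 141 of 19973 protein-coding genes, with 31 flp, 71 nlp and 39 ins genes, daf-28 being counted with the ins family. PAG-3, the worm relative of the Gfi1 zinc finger factors, which acts in touch and ventral cord neurons, was mapped by chromatin immunoprecipitation with sequencing (ChIP-seq). The strain was OP154, with the genotype unc-119(ed3) III and wgIs154, an integrated transgene that gives PAG-3 tagged with GFP and FLAG at its C-terminus. Whole hermaphrodite larvae of the first stage (L1), starved after bleaching to synchronize them, were taken 6 hours after synchronization, and GFP was precipitated. The single group held 2 biological replicates, and a possible control named in the labels was not analysed here. The labels do not say which promoter drives the tagged gene, in which cells it was present, or whether the native pag-3 gene was active.

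Neuropeptides are cut from longer precursors in the secretory pathway, packed into dense core vesicles and released to act mostly on G protein-coupled receptors. In this worm the flp genes encode peptides with an RF-amide ending, the ins genes encode ligands of the single insulin receptor DAF-2, and the nlp genes encode a mixed group of other peptides. Many of these genes are used in small sets of neurons and others in the intestine or epidermis. In whole larvae, occupancy in few cells and weak occupancy in many cells cannot be told apart.

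Each replicate and both replicates together (the pooled list) came as a ranked list of 30000 regions that holds peaks and background, with rank 1 for the highest signal. A thresholded set of 910 regions was kept by the authors for reproducibility, and it equals the 910 highest pooled regions. The signal is the authors' peak height on a scale that is not stated, so it is used within a list only. The median signal was 58.5 in the thresholded set and 17.1 in the pooled list, whose lowest signal was 13.1. The read depth behind the lists is unknown. A gene was given the highest summit in its promoter window, which ran from 1000 bp upstream to 200 bp downstream of its annotated start.

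No peptide gene had a region of the thresholded set in its promoter window, against 511 of 19973 protein-coding genes (2.56%). That share lies inside the Wilson interval of the peptide genes, whose upper bound was 2.65%, so the absence is within counting error. The highest peptide gene region was that of nlp-4 at pooled rank 1108, followed by the shared region of nlp-31 and nlp-34 at rank 1919, ins-39 at rank 2102 and flp-18 at rank 2761. The sequences below show the letters at the summits of some of these regions and of nlp-27, with nlp-26 and nlp-41 added for the words they hold, in stretches outside exons, each up to 50 bp to either side of a summit and read 5′ to 3′ on the strand of the gene, from the RefSeq genome on WBcel235 (ce11). Capitals mark the words searched on either strand, which are GAGAGA or GACGCA or AATCAC or ATGGCA, and TATAAA as a later addition.

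At ins-39, an insulin-like gene, the pooled region ranked 2102 and the sequence is chrX:1345059-1345159 on the minus strand. At flp-18, which encodes RF-amide peptides that act on NPR receptors, the pooled region ranked 2761 and the sequence is chrX:3019284-3019384 on the minus strand. Neither holds a searched word.
ins-39: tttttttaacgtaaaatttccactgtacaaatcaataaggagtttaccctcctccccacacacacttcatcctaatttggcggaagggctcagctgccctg
flp-18: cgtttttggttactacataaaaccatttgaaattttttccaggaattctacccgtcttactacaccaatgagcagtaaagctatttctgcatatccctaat

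The next sequences come from nlp genes on chromosome V, all on the plus strand. The nlp-31 sequence is that of replicate 1 (rank 2794, chrV:3979932-3980032), because the pooled summit lay in an exon. The nlp-27 sequence (pooled rank 2957, chrV:3989292-3989377) ends at the base before the annotated start and has TATAAA beginning 30 bp before that start. The nlp-26 sequence (pooled rank 4352, chrV:19613319-19613419) has GACGCA and GAGAGA on the minus strand, overlapping in 1 run of capitals that begins 132 bp upstream of the start.
nlp-31: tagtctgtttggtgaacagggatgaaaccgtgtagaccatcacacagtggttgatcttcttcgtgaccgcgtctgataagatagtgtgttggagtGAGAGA
nlp-27: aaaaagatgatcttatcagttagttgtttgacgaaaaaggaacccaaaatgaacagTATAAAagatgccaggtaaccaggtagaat
nlp-26: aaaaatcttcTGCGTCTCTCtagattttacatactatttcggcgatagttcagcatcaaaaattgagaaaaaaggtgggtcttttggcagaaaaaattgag

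The nlp-41 sequence (pooled rank 8193, chrII:14550215-14550315, plus strand) is shown because it holds AATCAC, the core of the site that Gfi1 proteins bind in mammals, here on the minus strand.
nlp-41: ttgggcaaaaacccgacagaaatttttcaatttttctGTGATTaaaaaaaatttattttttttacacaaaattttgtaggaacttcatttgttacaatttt

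Over the whole set, 43 of 141 peptide genes (30.5%, Wilson 95% interval 23.5 to 38.5%) had a pooled summit in the promoter window, against 8101 of 19973 protein-coding genes (40.6%). Replicate 1 placed a summit at 42 peptide genes (29.8%, 22.9 to 37.8%), against 40.2% of all protein-coding genes. Replicate 2 placed one at 48 (34%, 26.7 to 42.2%), against 39.0% of all protein-coding genes. The share of peptide genes was thus below that of all protein-coding genes in each of the 3 lists, by the smallest margin in replicate 2. In replicate 2 the share of all protein-coding genes lies inside the interval of the peptide genes. The pooled list comes from the same 2 replicates, so the 3 lists are not independent. All intervals cover counting error only, neighbouring genes can share a region, and no test of the difference was made because the genes were chosen with earlier results of these data known.

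The families lay in the same order in all 3 lists, with nlp first and ins last. In the pooled list a summit was present at 25 of 71 nlp genes (35.2%, 25.1 to 46.8%), 9 of 31 flp genes (29.0%, 16.1 to 46.6%) and 9 of 39 ins genes (23.1%, 12.6 to 38.3%). The counts were 24 nlp, 8 flp and 10 ins genes in replicate 1, and 27 nlp, 11 flp and 10 ins genes in replicate 2. The intervals of the families overlap, so this order is not larger than its counting error.

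**Figure D1:**
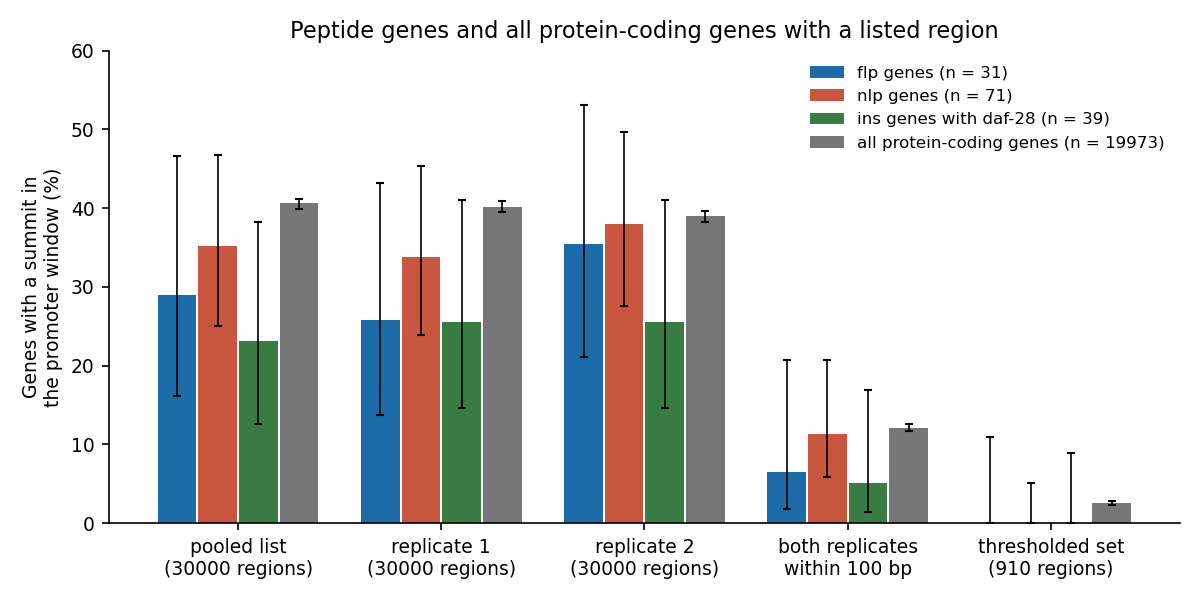
Percentage of genes with a summit in the promoter window (vertical axis) for flp, nlp and ins genes and all protein-coding genes, in the pooled list, each replicate, both replicates within 100 bp and the thresholded set. Bars are shares and error bars Wilson 95% intervals; the peptide families stand at 0 in the thresholded set, where all protein-coding genes reach 2.56%.

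The regions at peptide genes also ranked lower. Over the 43 genes with one, the median rank of the highest pooled region was 14281 (range 1108 to 28647), against 11152 over the 8101 protein-coding genes with one (quartiles 4066 and 19971). By family the median was 9424 for nlp, 14579 for ins and 15923 for flp genes, and in this list only the nlp median lay nearer the top than that of all protein-coding genes. In replicate 1 the median rank was 14846 over peptide genes and 18518 over nlp genes, against 10622 over all protein-coding genes with a region. In replicate 2 it was 16680 over peptide genes and 14856 over nlp genes, against 12206 over all. The nlp median thus lay below that of all protein-coding genes in each replicate alone.

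The upper part of the pooled list held few of these genes. Among its 10000 highest regions, 19 peptide genes (13.5%) had a summit in the window, against 18.8% of all protein-coding genes. Among its 3000 highest regions there were 6 (4.26%), namely nlp-4, nlp-31, nlp-34, ins-39, flp-18 and nlp-27, against 7.95% of all protein-coding genes.

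**Figure D2:**
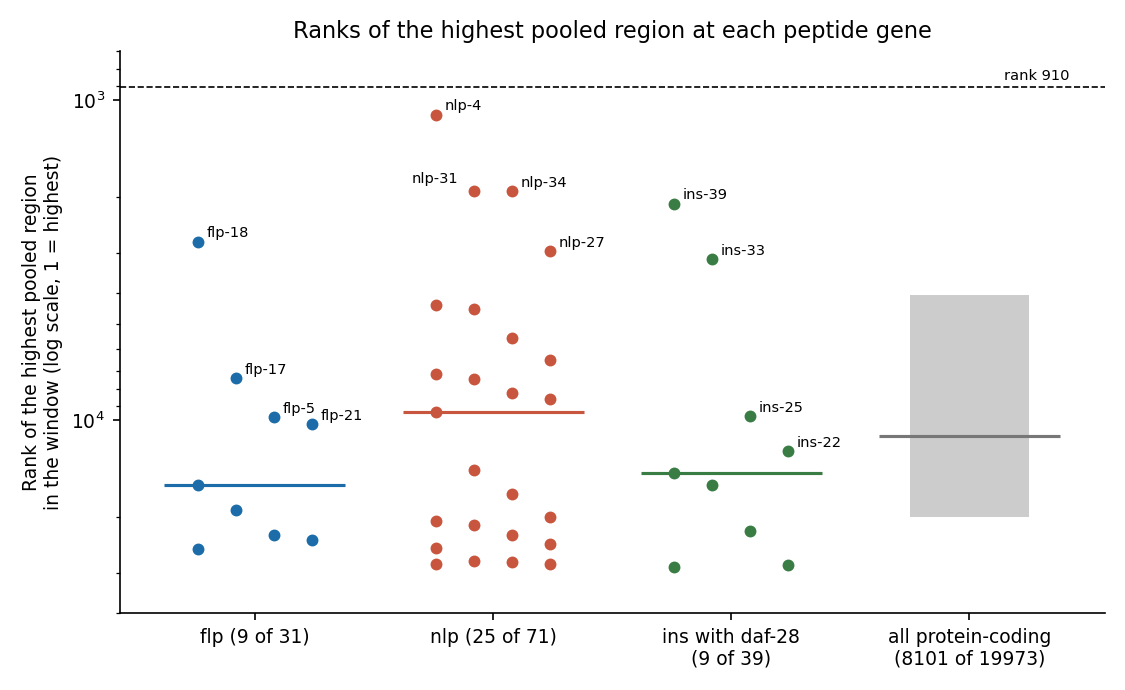
Rank of the highest pooled region in the promoter window (vertical axis, log scale, 1 is highest) for each of the 43 peptide genes with one, by family, with lines at the family medians. The gray box spans the quartiles of all protein-coding genes with a region around their median of 11152, and the dashed line at rank 910 marks the end of the thresholded set, above which no peptide gene lies.

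Of the flp genes, flp-18 had the highest pooled region, with signal 28.4 at 779 bp upstream of its start. Its replicate 1 region had signal 12.4 (rank 9168) and its replicate 2 region 12.9 (rank 2943), with summits 852 and 757 bp upstream. Both replicates thus listed flp-18, within 100 bp of each other. The region of flp-17, a peptide gene of the carbon dioxide-sensing BAG neurons, lay inside the gene's coding exon, 26 bp downstream of the start, with pooled signal 21.1 (rank 7379). It was listed in replicate 1 (signal 15.3, rank 5079) and not in replicate 2.

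The next flp genes were weaker. The region of flp-5 lay 926 bp upstream, with pooled signal 19.5 (rank 9739), 8.27 in replicate 1 (rank 25214) and 8.89 in replicate 2 (rank 11778), and its summits matched. At flp-21, whose peptide is a ligand of the receptor NPR-1, the pooled signal was 19.2 (rank 10235, 561 bp upstream), with a replicate 2 region of 13.6 (rank 2354) and none in replicate 1. At flp-13, a sleep-promoting peptide gene of the ALA neuron, the pooled signal was 16.8 (rank 15923), with a replicate 2 region of 6.88 (rank 23135) and none in replicate 1. The absence from a list shows only that no summit ranked among its 30000 regions there.

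Other flp genes had no pooled region. flp-1, which encodes peptides that shape locomotion, was 1 of 16 flp genes, of 31, with none in any of the 3 lists. The same held for 40.3% of all protein-coding genes. flp-10 had a replicate 1 region of signal 8.96 (rank 21369) at 117 bp downstream and a replicate 2 region of signal 7.29 (rank 20311) at 605 bp upstream, so its replicates did not match.

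Of the nlp genes, nlp-4 had the highest region of all 141 peptide genes. Its pooled signal was 40.1 (rank 1108), beside 22.4 in replicate 1 (rank 1911) and 12.1 in replicate 2 (rank 3797). The summits lay 258 bp (pooled), 233 bp (replicate 1) and 286 bp (replicate 2) upstream of the nlp-4 start, on chromosome I, and matched. The start of exos-3 was nearer, at 66 bp from the pooled summit, so the region cannot be given to nlp-4 rather than to that neighbour. The pooled signal stood below the 43.4 of the lowest region in the thresholded set.

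The next region was shared by nlp-31 and nlp-34, which are read away from each other. It had pooled signal 32.4 (rank 1919), 19.2 in replicate 1 (rank 2794) and 14.3 in replicate 2 (rank 1909). The pooled summit lay 65 bp inside nlp-31, in an untranslated exon, and 986 bp upstream of nlp-34, so the start of nlp-31 was the nearer. The replicates matched here, with summits 73 bp upstream (replicate 1) and 3 bp downstream (replicate 2) of the nlp-31 start.

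The region of nlp-27 lay 36 bp upstream of its start, with pooled signal 27.8 (rank 2957), 11.4 in replicate 1 (rank 11495) and 10.7 in replicate 2 (rank 6268), and its summits matched. The region of nlp-26 had pooled signal 24.6 (rank 4352, 92 bp upstream). Its replicates did not match, with signal 16.2 at 193 bp upstream in replicate 1 (rank 4302) and 6.13 at 99 bp downstream in replicate 2 (rank 29052).

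Other nlp genes with known roles lacked a pooled region. nlp-12, a relative of cholecystokinin, nlp-40, whose peptide is released from the intestine to time defecation, nlp-15 and the epidermal gene nlp-29 had none in any of the 3 lists. nlp-1, a peptide gene of the olfactory AWC neurons, had only a replicate 2 region of signal 6.90 (rank 22985). Over the family, 29 of 71 nlp genes had none of the 3, a share close to the 40.3% of all protein-coding genes.

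nlp-27, nlp-28, nlp-29, nlp-30, nlp-31 and nlp-34 lie together on chromosome V and encode antimicrobial peptides of the epidermis. A pooled summit was present in the window of 5 of these 6 genes (83.3%), all but nlp-29, against 40.6% of all protein-coding genes. Replicate 1 listed 3 of the 6, replicate 2 listed 5, and 3 had matched summits (nlp-27, nlp-31 and nlp-34), against 12.1% of all protein-coding genes. nlp-31 and nlp-34 share a region, so their counts are not independent, and shares of 6 genes rest on few counts. In a stretch of 12946 bp around the 6 genes, replicate 1 listed 5 regions (0.386 per kb) and replicate 2 listed 6 (0.463 per kb). The pooled list held 6 there (0.463 per kb), against 0.299 per kb over the genome, with signals between 13.5 and 32.4. None was in the thresholded set, whose nearest summit lay at a median of 160106 bp from these genes. How reads that fit several similar genes were placed is not given in the sources used here.

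**Figure D3:**
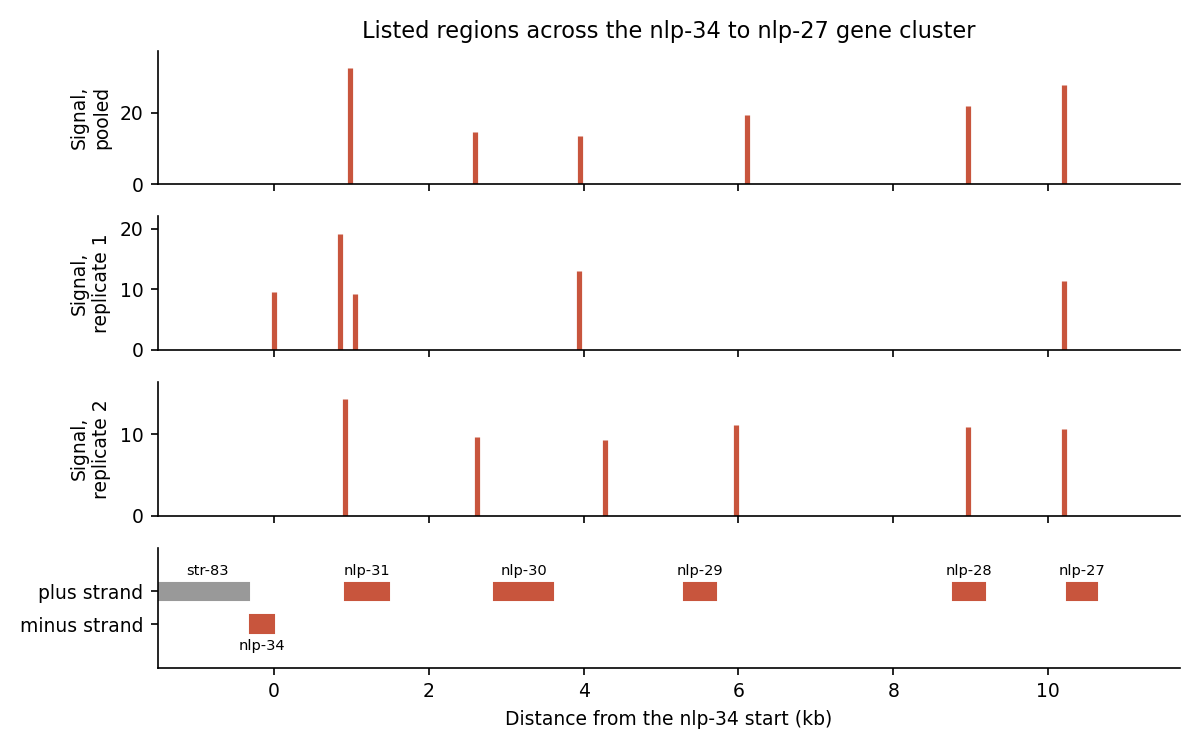
Signal of each listed region (bars, vertical axes, scale not stated) in the pooled list and in each replicate along the cluster, with distance from the nlp-34 start in kb on the horizontal axis and the gene models by strand at the bottom. The region near nlp-31, at 0.986 kb in the pooled list, and the region near nlp-27, at 10.208 kb, appear in all 3 lists.

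Of the ins genes, ins-39 had the highest pooled region, with signal 31.4, 688 bp upstream of its start. Replicate 1 listed it with signal 29.6 (rank 1027), and replicate 2 listed no region in the window. This region therefore rests on replicate 1. The region of ins-33, an insulin-like gene known to be repressed by the heterochronic factor LIN-14, had pooled signal 27.2 (rank 3137, 405 bp upstream), with 17.0 in replicate 1 (rank 3793) and 6.92 in replicate 2 (rank 22829), and its summits matched.

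Below these, ins-25 had pooled signal 19.5 (rank 9692) and a replicate 1 region of 7.56 (rank 29875) only. ins-22 had pooled signal 18.1 (rank 12447) with neither replicate listing it, and ins-36 had 17.3 (rank 14579) with a replicate 2 region of 6.62 (rank 25055) only. ins-1, an antagonist of DAF-2, had pooled signal 13.5 (rank 28278) in a coding exon 195 bp downstream of its start, and a replicate 1 region of 11.2 (rank 12151) only. None of these 4 genes was listed by both replicates.

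Some ins genes of known role had no region. ins-4, ins-6, ins-7 and daf-28, known agonists of DAF-2, had none in the pooled list or in either replicate, and neither had ins-17. ins-18, an antagonist, had a replicate 1 region of signal 7.83 (rank 28158) and a replicate 2 region of 8.84 (rank 11979) that did not match. Over the family, 21 of 39 ins genes had none of the 3, against 40.3% of all protein-coding genes.

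The replicates were then set against each other. Summits of both replicates within 100 bp of each other, both inside the window, were found at 12 peptide genes (8.51%, 4.94 to 14.3%), against 12.1% of all protein-coding genes. They were nlp-4, nlp-27, nlp-31, nlp-34, nlp-41, nlp-59, nlp-60, nlp-66, flp-5, flp-18, ins-21 and ins-33. By family they made up 8 of 71 nlp, 2 of 31 flp and 2 of 39 ins genes. A further 25 genes had a replicate 1 region only and 31 a replicate 2 region only. Of the peptide genes listed by replicate 1, 59.5% were not listed by replicate 2, against 45.4% of all protein-coding genes that replicate 1 listed. Of those listed by replicate 2, 64.6% were not listed by replicate 1, against 43.8% of all protein-coding genes that replicate 2 listed.

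A region in both replicates, matched or not, was present at 17 peptide genes (12.1%), against 21.9% of all protein-coding genes. Of the 17, 4 ranked within the 10000 highest of both, namely nlp-4, nlp-31, nlp-34 and flp-18, with nlp-31 and nlp-34 sharing a region. That last count was not made over all protein-coding genes. All 12 matched genes had a pooled region too. No region in any of the 3 lists was found at 66 of the 141 peptide genes (46.8%), against 40.3% of all protein-coding genes.

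**Figure D4:**
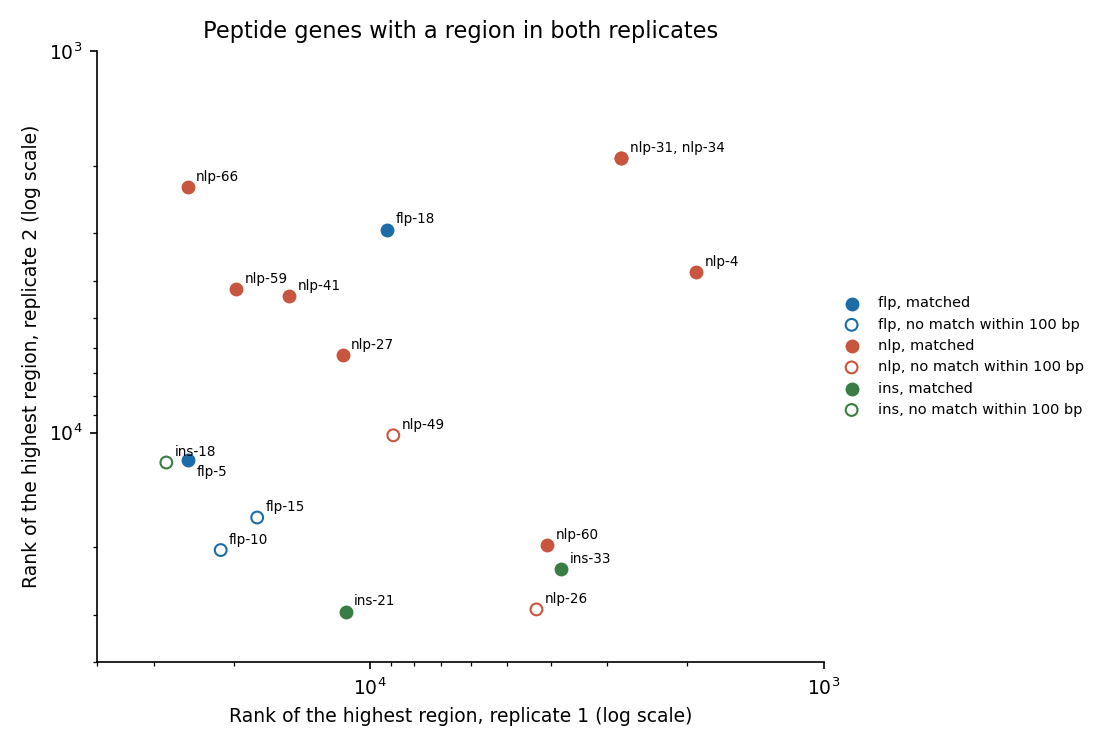
Rank of the highest region in replicate 1 (horizontal) and replicate 2 (vertical) for the 17 peptide genes with a region in both, on log scales that run towards higher regions. Filled points are genes with summits matched within 100 bp; nlp-31, nlp-34, nlp-4 and flp-18 lie within rank 10000 of both replicates.

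In the thresholded set the count was 0 of 141, which allows a share of up to 2.13% when a count of 0 is read as at most 3, with a Wilson upper bound of 2.65%. Of all protein-coding genes, 511 (2.56%) had a thresholded summit in the window, a share that lies inside the Wilson interval of the peptide genes. Within 5 kb of the start, in either direction, 4 peptide genes had a thresholded summit (2.84%, 1.11 to 7.07%), against 1615 of all protein-coding genes (8.09%). Beyond that range the sets lay closer together, with a median distance to the nearest thresholded summit of 50598 bp for peptide genes, against 49885 bp for all protein-coding genes. The ins genes were the farthest family, at a median of 103130 bp, beside 44691 bp for flp and 37151 bp for nlp genes. Neighbouring ins genes shared the same nearest thresholded summit, so their distances are not independent. This held for ins-24 to ins-30 on chromosome I and for ins-2 to ins-6 on chromosome II. The order of flp and nlp turned with as many regions of a single replicate, at 28112 bp for flp and 42729 bp for nlp genes in replicate 1, and 44590 bp for flp and 51134 bp for nlp genes in replicate 2, while ins stayed the farthest at 111109 and 79035 bp.

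The nearest was ins-13, whose thresholded region lay 1155 bp downstream of the start and 803 bp past the end of the gene (signal 87.0, rank 186), with no nearer protein-coding start. ins-13 also had a weak pooled region 98 bp upstream (signal 14.9, rank 22114), listed in replicate 2 with signal 16.9 (rank 951) and not in replicate 1. Its pooled summit lay in an untranslated exon of acdh-2, so the region cannot be given to ins-13 rather than to acdh-2. The region nearest to ins-17 lay 1861 bp downstream (signal 51.6, rank 599), but 207 bp from the start of rps-1, a ribosomal protein gene, inside the non-coding gene F56F3.10. The nearest gene start to a thresholded summit near a peptide gene was thus the peptide gene itself at ins-13 and another gene at ins-17.

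The region nearest to nlp-2 lay 3566 bp upstream (signal 43.9, rank 885), in a coding exon of T01B6.1, and nlp-2 itself had a replicate 1 region of signal 7.84 (rank 28067) only. That nearest to flp-23 lay 3945 bp downstream (signal 45.7, rank 809), 787 bp from the start of F22B7.9. In the window of flp-23 the pooled signal was 15.8 (rank 19039), with a replicate 1 region of 15.2 (rank 5187) and none in replicate 2. For nlp-6 the thresholded region lay 5012 bp downstream (signal 113, rank 117), and its window held a pooled region of 20.2 (rank 8601) and a replicate 2 region of 12 (rank 3887).

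The peptide genes that were the nearest protein-coding start to the thresholded summit nearest them numbered 3, namely ins-13, nlp-2 and nlp-40. For nlp-40 that summit lay 172 bp past the end of the gene, 5514 bp from its start, with signal 106 (rank 132). With each thresholded summit given to its nearest protein-coding start, 3 peptide genes (2.13%) received 1 or more, against 822 of all protein-coding genes (4.12%).

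**Figure D5:**
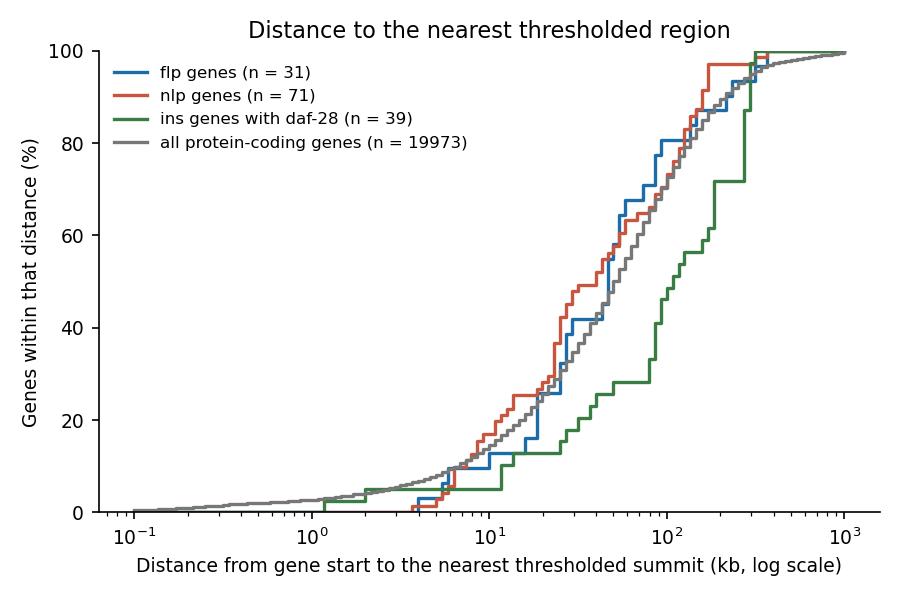
Cumulative percentage of genes (vertical axis) whose start lies within a given distance of the nearest thresholded summit (horizontal axis, kb, log scale), for flp, nlp and ins genes and all protein-coding genes. The ins curve lies to the right over most of its length, with a median of 103130 bp against 49885 bp for all protein-coding genes. Neighbouring ins genes share nearest summits, so the steps of that curve are not independent.

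The position of the summits and of the genes also differed from those of other genes. Over the 43 peptide genes the pooled summit lay at a median of 520 bp from the start, against 318 bp over all protein-coding genes with one. Of these summits 33 were intergenic, 4 lay in introns, 4 in untranslated exons and 2 in coding exons. Of those inside a protein-coding gene model, 6 lay in the peptide gene itself and 4 in another gene. These classes were not counted over all protein-coding genes, so they are not compared. The 43 genes used 42 distinct regions. Of the 43, 40 were the nearest protein-coding start to theirs, beside 6714 of the 8101 protein-coding genes with a pooled region. The exceptions were nlp-4, nlp-34 and nlp-39. No interval was computed for the share among the 43. With genes that had no region counted in, the 40 were 28.4% of the 141 (21.6 to 36.3%). The 33.6% of all protein-coding genes lies inside that interval.

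Peptide genes had more room upstream. The median distance to the next protein-coding gene upstream was 2540 bp for peptide genes, against 936 bp for all protein-coding genes, and it was longest for flp genes at 5185 bp. Such a gap of 1000 bp or more, so that the upstream part of the window holds no other protein-coding gene, was present at 106 peptide genes (75.2%), against 48.0% of all protein-coding genes. Within that class a pooled summit lay in the window of 34 peptide genes (32.1%), against 38.8% of all protein-coding genes. In the class with gaps under 1000 bp it was 9 of 35 peptide genes (25.7%), against 42.2% of all protein-coding genes. The share of peptide genes was the lower in both classes, but no interval was computed for either. With gaps of 1000 bp or more the ins genes were lowest, at 6 of 27 (22.2%), beside 9 of 25 flp and 19 of 54 nlp genes. With gaps of 3000 bp or more it was 21 of 65 peptide genes (32.3%), against 38.2% of all protein-coding genes. There the flp genes alone (8 of 20) stood above all protein-coding genes. Whether gene spacing accounts for the lower share was not tested. When each pooled summit was instead given to its nearest protein-coding start, at any distance, the direction turned, with 101 peptide genes (71.6%) receiving 1 or more, against 67.0% of all protein-coding genes. That setting drops the window and gives each summit to 1 gene only. With the window alone widened to 2000 bp upstream, 63 peptide genes (44.7%) had a pooled summit, against 56.3% of all protein-coding genes.

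By chromosome, the pooled share was highest on chromosome V, at 12 of 24 peptide genes, against 36.7% of all protein-coding genes there. The nlp genes made up 11 of these 12, of 18 nlp genes on that chromosome, and 5 of them were the epidermal cluster. It was lowest on chromosome II, at 3 of 28 peptide genes (10.7%), against 37.9% of all protein-coding genes there, and only 1 of the 15 ins genes on that chromosome had a pooled region. The X chromosome held 34 peptide genes (24.1% of them, and 13 of the 31 flp genes), against 13.7% of all protein-coding genes, and 10 of the 34 (29.4%) had a pooled region, against 40.7% of all protein-coding genes on X.

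Of the peptide genes, 39 lay within 10 kb of another, in 11 groups, and 11 of them (28.2%) had a pooled region, beside 32 of the 102 others (31.4%). On chromosome II none of ins-2, ins-3, ins-4, ins-5 and ins-6 had a pooled region. On the X chromosome flp-28, flp-3 and flp-2 had none in any of the 3 lists. Clustered peptide genes as a class thus did not carry the high share seen in the epidermal nlp group.

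Short words were searched on both strands, up to 50 bp to each side of a summit, in the 42 pooled regions of peptide genes, in the 7020 distinct regions that are the highest of any protein-coding window, and in the 406 thresholded ones among window regions. AATCAC stands for the Gfi1 site, and the words GAGAGA or ATGGCA or GACGCA were known from earlier results of these data. AATCAC was present in 2 regions of peptide genes (4.76%, nlp-41 and nlp-82), against 5.88% of the window regions and 5.42% of the thresholded ones. GAGAGA was in 5 (11.9%), against 9.13% of window regions and 24.6% of thresholded ones. GACGCA was in 3 (7.14%), against 4.16% of window regions and 15% of thresholded ones. ATGGCA was in 0 of 42, against 4.09% of window regions and 14.8% of thresholded ones. With 42 regions the intervals are wide, with an upper bound of 8.38% for ATGGCA, and all of these shares of peptide genes lay within counting error of the window regions.

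TATAAA was added after the sequences printed above had been seen. It was in 6 of the 42 regions (14.3%), against 12.3% of the window regions and 5.42% of the thresholded ones. The genes were nlp-27, nlp-28, nlp-31 with nlp-34, nlp-48, ins-13 and ins-25, so 3 of the 6 regions were those of the epidermal cluster. The median GC content around the summit was 33.7% at peptide genes, against 34.7% in window regions and 44.6% in thresholded ones.

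The genes that make, pack and read these peptides were counted in the same way. Of 18 genes of peptide processing and dense core vesicles, 7 had a pooled region (38.9%), 12 a replicate 1 region (66.7%) and 9 a replicate 2 region, and none had a thresholded one in the window. Against 40.6% of all protein-coding genes in the pooled list, 40.2% in replicate 1 and 39.0% in replicate 2, the share was near background in the pooled list and above it in both replicates. These shares of 18 genes rest on few counts and no interval was computed for them, so the excess, smaller in replicate 2, may be counting error. The highest were rund-1, which acts in vesicle maturation (signal 30.7, rank 2229, matched in both replicates), bli-4, a proprotein convertase (signal 24.0, rank 4752), and sbt-1, the chaperone of such a convertase (signal 23.0, rank 5444). Of 104 receptor genes, 41 had a pooled region (39.4%), 12 had matched replicates (11.5%) and none a thresholded one in the window, against 40.6%, 12.1% and 2.56% of all protein-coding genes for the same measures. A thresholded summit lay within 5 kb of 3 receptor starts (2.88%), against 8.09% of all protein-coding genes. The nearest lay in an intron of npr-5, 387 bp from its start (signal 72.5, rank 285). The leading receptors were dmsr-11 (signal 33.0, rank 1825), dmsr-13 (signal 29.8, rank 2414) and frpr-14 (signal 29.4, rank 2519). Of 7 peptide genes with other names, 2 had a pooled region, pdf-2 (signal 18.4, rank 11826) and trh-1 (signal 16.9, rank 15540).

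The insulin signalling list held the only thresholded region in the windows of these lists. Of its 13 genes 7 had a pooled region (53.8%), against 40.6% of all protein-coding genes, and 9 a replicate 1 region (69.2%), against 40.2%. In replicate 2 there were 5 (38.5%), against 39.0% of all protein-coding genes, and 4 had matched replicates (30.8%), against 12.1%. With 13 genes these shares rest on few counts. akt-2, a kinase that acts downstream of DAF-2, had a thresholded region 776 bp upstream of its start, with pooled signal 76.0 (rank 249), 58.5 in replicate 1 (rank 235) and 19.6 in replicate 2 (rank 535). daf-16, the FoxO factor at the end of the pathway, had pooled signal 32.1 (rank 1968), with 20.7 in replicate 1 (rank 2295) and 13.3 in replicate 2 (rank 2567). akt-1, the other Akt kinase, had pooled signal 27 (rank 3201), with 17.6 in replicate 1 (rank 3455) and none in replicate 2. daf-2 itself, the receptor gene, had pooled signal 17.3 (rank 14367), with a replicate 1 region of 17.3 (rank 3627) and none in replicate 2. Of these genes akt-2 and daf-16 had matched replicates. For daf-16 the match rests on a different pair of summits in the window. The regions quoted for it lay 280 bp (replicate 1) and 638 bp (replicate 2) upstream and did not match each other.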

How the data were processed

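PAG-3 ChIP-seq of 2 biological replicates, grouped and numbered from the labels, formed 1 group. The authors deposited ranked lists of 30000 regions per replicate and for both together, which per the file headers hold peaks with background for an IDR analysis, and a set of 910 regions thresholded by IDR, all on ce11. Each region has a deposited signal, the peak height on a scale that is not stated, and a deposited summit offset in bp (another measure, used for position). Aligner and caller were not given in the sources used here, nor were versions. The ce10 lists were not used. No read depth is given, so no depth precision could be computed.

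Gene starts came from Ensembl release 115 on WBcel235 and sequence from RefSeq on the same assembly. All regions of the lists lay within the lengths of its 6 chromosomes. Each gene had 1 start, the outer end of its model. Summits were placed with Python 3.11.15, numpy 2.4.6 and pandas 2.3.3, and intervals are Wilson 95% from scipy 1.17.1. Figures used matplotlib 3.10.9. Placement was tested on simulated data, with no difference from a direct search. Replicate summits within 100 bp counted as matched. No hypothesis test was made. Genes are not independent, since neighbours can share a region, and trans-splicing can hide the true start.

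The genes, lists, words and rules were chosen with earlier results of these data known. Named genes were the 5 of each family with the highest pooled region, the 5 nearest a thresholded summit, the 5 highest with matched replicates, genes of known roles, and the 3 highest of each pathway list with any thresholded one. Any other gene was named with its values in view. Alternatives were other windows, list lengths, match distances, starts, thresholds, assignments and each replicate alone.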

Additional observations from a re-analysis of the deposited data

How the results depend on the processing

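Of 55 alternative values, 35 stayed within 1.5 times the value reported. With a window from 500 bp upstream, 22 peptide genes had a pooled summit (15.6%, against 28.6% of all protein-coding genes). There were 26 in replicate 1 (18.4%, against 29.1%), 31 in replicate 2 (22.0%, against 26.7%) and 6 with matched replicates (4.26%, against 8.53%). From 2000 bp upstream there were 79 in replicate 2 (56.0%, against 55.2% of all protein-coding genes, where the direction turned) and 19 matched. With the 10000 highest regions there were 19 pooled (13.5%, against 18.8%), 13 in replicate 1 (9.22%, against 19.3%) and 14 in replicate 2 (9.93%, against 16.9%). With the 3000 highest there were 6 (4.26%, against 7.95%), 4 (2.84%, against 7.97%) and 6 (4.26%, against 6.53%) in the same order. A match distance of 50 bp left 6 matched genes (4.26%, against 8.21%). Giving each summit to the nearest start gave 101 pooled genes (71.6%, against 67.0%, where the direction turned) and 3 thresholded ones (2.13%, against 4.12%). Doubling the thresholded set to 1820 regions gave 1 gene in the window (nlp-4, 0.709%, against 5.07%) and 11 within 5 kb (7.8%, against 15.6%). The median distance was then 26800 bp, against 24591 bp for all protein-coding genes. The 455 thresholded regions of higher signal gave 1 gene within 5 kb (0.709%, against 4.04%) and a median of 99949 bp, against 104009 bp. More or fewer regions and wider or narrower windows change these counts by construction. With 1 replicate alone, the pooled count was 42 to 48, the thresholded count 0 in either replicate, the count within 5 kb 4 to 6, the median rank 14846 to 16680 and the median distance 53613 to 54838 bp. The ce10 alternative was not run, since no annotation on ce10 was used here. No paired analysis was possible because there is 1 group. The unknown depth limits what absence from a list shows.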

Other observations

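Several peptide genes stood high in a single replicate. ins-13 ranked 951 in replicate 2 (signal 16.9, 136 bp upstream) and was not listed in replicate 1, while its pooled region ranked 22114. ins-39 ranked 1027 in replicate 1 and was not listed in replicate 2, while its pooled region ranked 2102. nlp-66 was listed by both, at rank 2273 in replicate 2 (signal 13.7) and rank 25270 in replicate 1 (signal 8.26), with pooled rank 4479. The highest single-replicate ranks thus did not always carry over to the pooled list.

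ins-22 and nlp-39 had a pooled region (ranks 12447 and 24944) that neither replicate listed in the window. In contrast, 32 peptide genes had a region in replicate 1 or replicate 2 and none in the pooled list. The highest were nlp-76 in replicate 1 (signal 11.9, rank 10281) and nlp-17 in replicate 2 (signal 9.20, rank 10622). Of the peptide genes, 30.5% were in the pooled list and 46.8% in none of the 3 lists. Genome-wide these shares were 40.6% and 40.3%. The remainder, listed by a replicate only, was thus of similar size in both sets and not particular to peptide genes. The cause of these differences between the lists was not tested.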
